A study of Gossypium hirsutum with 6 samples.

Results

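The 200 gene models with the steadiest mRNA level across fibers, ovules and leaves of allotetraploid cotton were described. Gossypium hirsutum acc. TM-1, the genetic standard line of upland cotton, carries an A and a D subgenome. The samples were fibers at 14 days post anthesis (DPA, days after flowering), ovules at 0 DPA and young leaves, with 2 biological replicates each and 6 mRNA-seq libraries in all. No genotype, treatment or allele differed between the samples, and the sources used here give no number of plants behind a library. Expression was given as FPKM, fragments scaled to the length of the gene model and to the fragment total of the library, so a value is a share of its own library.

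The models were chosen by their values in all 6 libraries. Of 77357 models in the table, 2483 had at least 20 FPKM in every library, and 1673 of these also stayed under 200 FPKM in every library. These 1673 models are called the level window below. They were ranked by the highest of the 6 values divided by the lowest (the ratio), and the 200 smallest ratios were taken. Because the rule used every library and every tissue comparison, the values of these libraries are given as a description. Counts of members called in a fit across all models are given beside the share of all models called, and nothing is read from them about the members.

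Genes with a steady level across organs serve as internal references in expression assays such as quantitative RT-PCR, where the amount of another transcript is read against theirs. Classical plant references encode actin, tubulin, ubiquitin and translation factors, which nearly every cell needs. A cotton fiber is a single epidermal cell of the ovule that elongates after flowering, while the ovule at 0 DPA and the young leaf are mixtures of many cell types. In such samples, fewer cells of a type and less RNA per cell cannot be told apart. The table pairs no gene names with its identifiers, and a search of RefSeq's genes for assembly Gossypium_hirsutum_v2.1 matched 0 of 77357 models. The members are therefore given by identifier, without function, position or sequence, and the tissues could not be checked against marker genes here. The prefix Cotton_A is read as A-genome and the prefix Gorai as D-genome, from the identifier alone.

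The summed FPKM of a library ranged from 927473 to 1014584. Relative to fiber replicate 1, sequencing depth read from whole-number steps of the values was 0.964 in the other fiber library, 0.867 and 0.740 in the ovule libraries and 0.704 and 0.728 in the leaf libraries. The 200 models held 1.10% and 1.16% of the summed FPKM in fiber, 1.15% and 1.19% in ovule and 1.03% and 0.996% in leaf.

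The smallest ratio in the level window was that of Gorai.006G133400, a D-genome model. It had 25.1 and 25.8 FPKM in the fiber libraries, 25.1 and 23.7 FPKM in the ovule libraries and 24.2 and 25.4 FPKM in the leaf libraries. Its highest value was 1.09 times its lowest, and the libraries of the 3 tissues overlapped. The next model, Gorai.011G246400, stood at 31.3 and 31.3 FPKM in fiber, 34.2 and 33.8 FPKM in ovule and 31.9 and 30.7 FPKM in leaf (ratio 1.11). Here both ovule libraries lay above the other 4.

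The A-genome models at the head of the ranking were Cotton_A_01848 and Cotton_A_09082. Cotton_A_01848 had 25.4 and 27.3 FPKM in fiber, 24.1 and 25.2 FPKM in ovule and 24.8 and 24.8 FPKM in leaf, a ratio of 1.13. Both of its fiber libraries were the highest, by a small margin. Cotton_A_09082 had 44.7 and 41.5 FPKM in fiber, 39.7 and 45.2 FPKM in ovule and 43.4 and 40.5 FPKM in leaf, a ratio of 1.14. Its lowest and highest value both came from the ovule, so its spread was that between replicates.

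Gorai.002G262000 and Gorai.011G054200 completed the first 6. Gorai.002G262000 was at 41.4 and 42.0 FPKM in fiber, 37.0 and 37.0 FPKM in ovule and 40.1 and 39.3 FPKM in leaf, with replicates of a tissue closer than the tissues. Gorai.011G054200 was at 37.7 and 37.6 FPKM in fiber, 39.3 and 37.7 FPKM in ovule and 34.5 and 37.9 FPKM in leaf, where the 2 leaf libraries spanned most of the range. The ratio was 1.14 in both models.

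**Figure D1:**
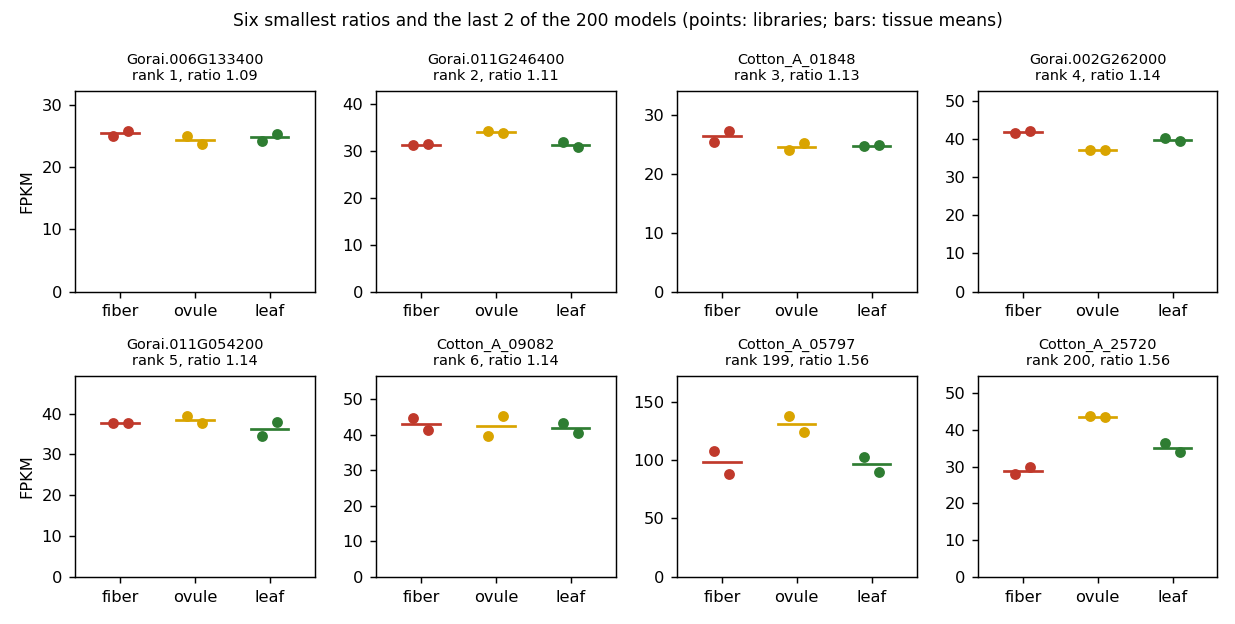
FPKM (y axis, from 0) of the 6 models with the smallest ratio and of the last 2 models taken, by tissue (x axis); points are single libraries and bars are tissue means. In the first 6 models the tissues lie at nearly one level, with ratios of 1.09 to 1.14, while in the last 2 models the ovule libraries stand above fiber and leaf (ratio 1.56).

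Over the 200 models the ratio ran from 1.09 to 1.56, with a median of 1.40. In all, 21 models had a ratio under 1.2, 58 under 1.3 and 102 under 1.4. The coefficient of variation over the 6 libraries had a median of 13.6% and ran from 3.19% to 20.1%. In the other 1473 models of the level window the ratio had a median of 2.74 and reached 9.19, and a window from 20 to 200 FPKM admits no ratio of 10 or more.

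The limit of 200 models fell in a continuous ranking. The last model inside, Cotton_A_25720 (ratio 1.5627), had 28.0 and 29.9 FPKM in fiber, 43.7 and 43.4 FPKM in ovule and 36.5 and 33.9 FPKM in leaf. The tissues of this model did not overlap. Cotton_A_05797, the last but one inside (ratio 1.5621) had 108 and 88.0 FPKM in fiber, 137 and 124 FPKM in ovule and 103 and 90.0 FPKM in leaf. Just outside stood Cotton_A_28722 (ratio 1.5628), with 127 and 130 FPKM in fiber, 95.6 and 89.5 FPKM in ovule and 83.4 and 91.4 FPKM in leaf. Cotton_A_29354 came next (ratio 1.5632), with 97.0 and 97.9 FPKM in fiber, 79.7 and 74.4 FPKM in ovule and 115 and 116 FPKM in leaf.

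**Figure D2:**
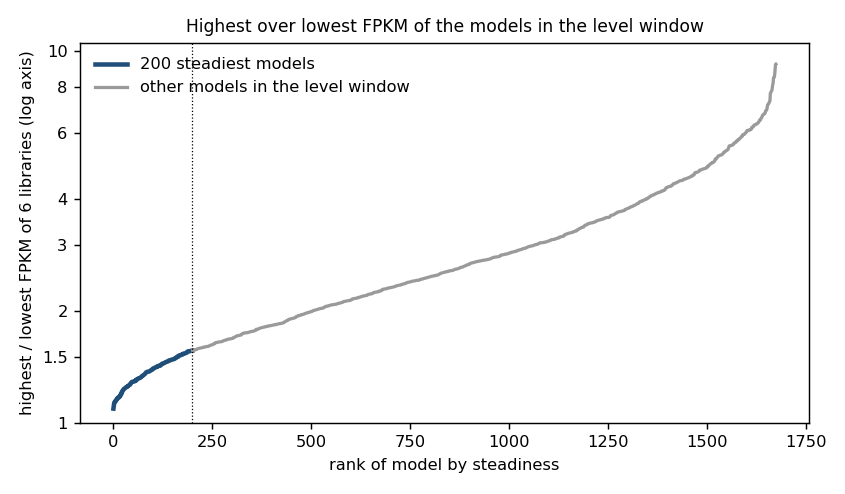
Ratio of the highest to the lowest FPKM of the 6 libraries (y axis, log scale) against rank (x axis) for the 1673 models of the level window. The line rises without a step at rank 200, from 1.5627 at the last model taken to 1.5628 at the next.

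The members lay lower in level than the rest of the window. The mean FPKM over the 6 libraries had a median of 41.6 in the members and of 61.9 in the other models. Of the 332 window models with a mean under 40 FPKM, 97 (29.2%) were members, against 71 of 910 (7.80%) from 40 to 80 FPKM and 32 of 431 (7.42%) from 80 FPKM up. The window itself sets part of this, since a model with a mean near 20 FPKM and no value under 20 FPKM cannot vary much. The largest ratio among models with a mean under 40 FPKM was 3.42. The lowest member was Gorai.008G032200, with 24.4 and 25.7 FPKM in fiber, 21.2 and 21.6 FPKM in ovule and 21.4 and 23.6 FPKM in leaf. The highest was Cotton_A_10830, with 167 and 174 FPKM in fiber, 174 and 177 FPKM in ovule and 163 and 153 FPKM in leaf. It was also ninth in steadiness, with a ratio of 1.15.

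The spread of the members was divided between replicates and tissues. The higher replicate exceeded the lower by a median factor of 1.05 in fiber, 1.05 in ovule and 1.06 in leaf among the members, and by 1.05, 1.05 and 1.06 in the same tissues among the other window models. The highest tissue mean exceeded the lowest by a median factor of 1.30 among the members and 2.51 among the others. Replicate factors were alike in members and other models. The tissue factors differed, as the rule had sorted the models by the spread of these same values. In 33 members (16.5%) the widest replicate factor was larger than the tissue factor, against 19 of the 1473 other window models (1.29%). In 3 members (1.5%) the highest and the lowest library came from the same tissue, against 2 of the others (0.136%). In 8 of 200 members (4%) the libraries overlapped in every pair of tissues, against 5 of the others (0.339%). The rule used these values, so nothing is read from these shares.

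On the deposited scale the tissues did not hold the highest and lowest libraries equally often. The highest library was an ovule library in 90 members, a fiber library in 70 and a leaf library in 40. The lowest library was a leaf library in 103 members, a fiber library in 49 and an ovule library in 48. The ovule held the highest library in 45.0% of the members against 51.3% of the other window models, and the leaf held the lowest in 51.5% against 60.1%. By tissue means, the most frequent order was ovule over fiber over leaf (55 members), followed by fiber over ovule over leaf (44). The rarest, leaf over ovule over fiber, was found in 18 members.

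**Figure D3:**
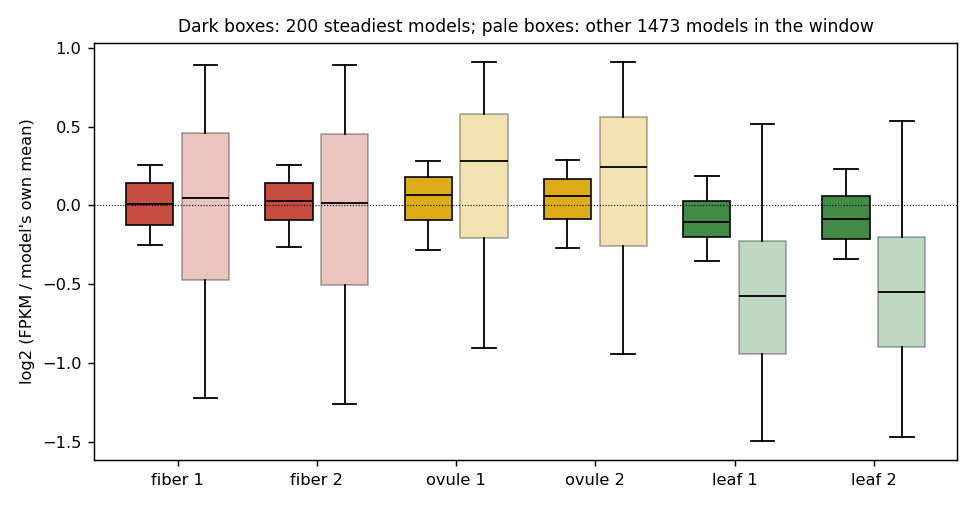
Log2 of a value over the mean of its own model (y axis) in each library (x axis), for the 200 steadiest models (dark boxes) and the other 1473 models of the level window (pale boxes); boxes are quartiles with the median, and whiskers reach the 5th and 95th percentiles. The medians of the members lie between -0.11 in leaf replicate 1 and 0.07 in ovule replicate 1, and those of the other models between -0.57 and 0.28 in the same libraries.

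In the ovule relative to the leaf (OL), the members had a median log2 change of 0.13 on the scale of log2(FPKM + 1), against 0.48 over all 42214 models with a mean of at least 0.5 FPKM. The range over the members was -0.54 to 0.59. The largest increase was that of Gorai.002G054400, with 171 and 171 FPKM in ovule against 113 and 115 FPKM in leaf. Gorai.006G171900 had the largest decrease, with 116 and 113 FPKM in ovule against 169 and 165 FPKM in leaf. Both differences were larger than the spread between replicates of each tissue. Both ovule libraries lay above both leaf libraries in 104 members (52.0%), against 59% of all models tested, and below them in 44 (22.0%), against 28.4%.

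By limma across all models, 47 members were higher and 15 lower in the ovule at an adjusted p under 0.01 with no minimum change. That is 31.0% of the members, where 65.8% of all models tested were called (45.2% higher and 20.6% lower). With a change of over 2-fold required, 0 members were called, against 46.8% of all models, as the ratio limit of the set leaves no room for one. The rule used this contrast, so nothing is read from the shares. The direction turned with the scaling, to 0 higher and 142 lower under median-of-ratios scaling and 1 higher and 65 lower under quantile normalization. Without 1 ovule or leaf library the median log2 change of the members was 0.096 to 0.15.

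In the fiber relative to the ovule (FO), the median log2 change of the members was -0.04, against -0.42 over all models tested, and the range was -0.58 to 0.59. Gorai.006G171900 again marked one end, with 174 and 174 FPKM in fiber against 116 and 113 FPKM in ovule, and Cotton_A_25720, given above, the other. Both fiber libraries lay above both ovule libraries in 68 members (34%), against 32.3% of all models, and below them in 85 (42.5%), against 56.3%. The fit across all models called 25 members higher and 30 lower in the fiber (limma, adjusted p under 0.01), 27.5% of the set, where 67.8% of all models were called (23.7% higher and 44% lower). Over 2-fold, 0 members were called, against 50.3% of all models. The rule used this contrast too, and nothing is read from these shares. The calls were 122 higher and 0 lower after median-of-ratios scaling, and under quantile normalization 59 were higher and 7 lower. Without 1 fiber or ovule library the median log2 change of the members was -0.041 to -0.031.

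Between fiber and leaf (FL), the members had a median log2 change of 0.08, against 0.04 over all models tested, with a range of -0.50 to 0.62. Cotton_A_05103 was at 126 and 125 FPKM in fiber against 82.0 and 80.7 FPKM in leaf, the largest increase. The largest decrease was in Gorai.009G047100, with 63.5 and 65.03 FPKM in fiber against 86.1 and 96.3 FPKM in leaf. Both fiber libraries lay above both leaf libraries in 101 members (50.5%), against 45.6% of all models, and below them in 45 (22.5%), against 41.9%. Called in the fit were 46 members higher and 15 lower in the fiber (limma, adjusted p under 0.01), 30.5% of the set, where 67.5% of all models were called (35.1% higher and 32.4% lower). Over 2-fold, 0 members were called, against 50.9% of all models, and again nothing is read from shares that the rule fixed. The calls were 12 higher and 35 lower after median-of-ratios scaling, and under quantile normalization 14 were higher and 30 lower. Leaving out 1 library, of any tissue, gave a median log2 change of the members of 0.080 to 0.12. The 3 comparisons share libraries, so their counts are not independent of each other.

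To describe steadiness in libraries that the choice did not use, the rule was applied to the 3 libraries numbered 1 and the models were then read in the 3 libraries numbered 2. The 200 models chosen in this way had a median ratio of 1.28 in the libraries used and of 1.33 in the libraries left out, with quartiles of 1.21 and 1.45. The other 1638 models of that window had a median ratio of 2.60 in the libraries left out, with quartiles of 1.96 and 3.72. A ratio under 1.5 was kept by 159 of 200 chosen models (79.5%), against 92 of 1638 others (5.62%). The libraries left out come from the same tissues and study, and share with those used whatever the study's growth and library preparation had in common.

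With the replicates exchanged, the median ratio was 1.28 in the libraries used and 1.32 in those left out, against 2.61 in the other 1641 models. Here 156 of 200 chosen models (78.0%) stayed under 1.5, against 5.67% of the others. Each of these choices held 159 of the 200 members, and 135 models were chosen by both.

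**Figure D4:**
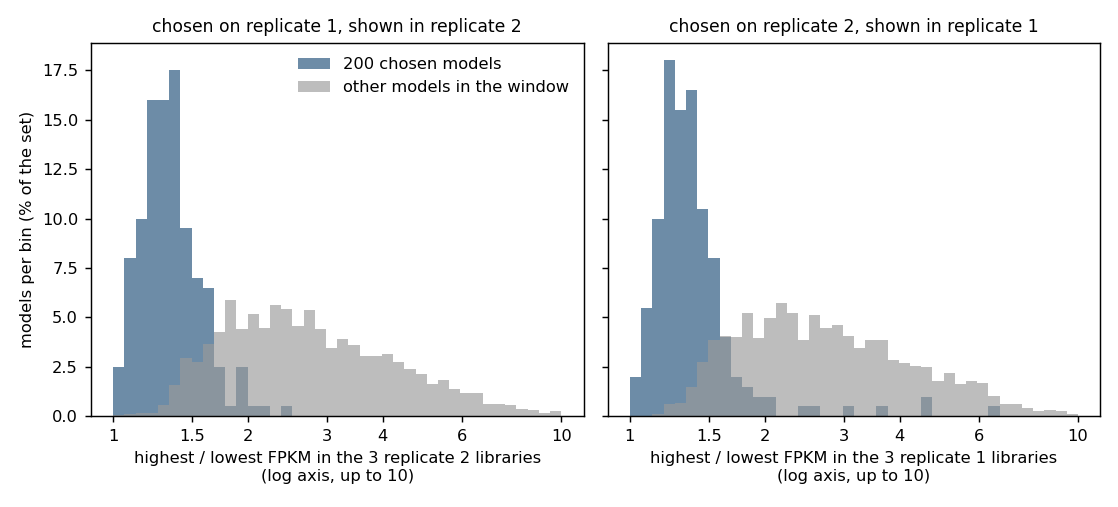
Ratio of the highest to the lowest FPKM (x axis, log scale) in the 3 libraries that were left out of the choice, as a percentage of each set (y axis), for 200 chosen models and the other models of that window. The chosen models centre at 1.33 (left) and 1.32 (right) and the others at 2.60 and 2.61; models beyond a ratio of 10, among them 2 chosen models listed at 0 in a replicate 1 library, are not drawn.

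Leaving out a single library gave a similar picture. Between 173 and 186 of the 200 members were chosen again from 5 libraries, and 164 were chosen whichever library was left out. The left-out value differed from the mean of the other 5 by a median factor of 1.13 to 1.14, against 1.40 to 1.57 over all models of those windows. It fell inside the range of the other 5 in 52.0% to 63.5% of the chosen models, a smaller share than the 59.5% to 68.2% of all models of those windows, and smaller for each of the 6 libraries. The lowest of these shares was for ovule replicate 1, which lay above the range in 68 chosen models and below it in 28. Leaf replicate 1 lay below the range in 74 and above it in 19.

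The precision of the values was read from the reads behind them. Where reads are counted whole, the 6 values of a model stand in whole-number ratios once each library is scaled by its depth, and the smallest whole reads can be recovered. This was possible for all 95 A-genome members and for 44 of 105 D-genome members (41.9%). In the rest of the window it was possible for all 766 A-genome models and for 347 of 707 D-genome models (49.1%). Recovered reads are lower bounds, so that counting errors taken from them are upper bounds. Over these 139 members, the library with the fewest reads had a median of 254 reads, which gives a counting error of 6.27%, and the range was 26 to 1539 reads. Errors from counting are the only ones covered.

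The chi-square value of the 6 read numbers against one common level, per degree of freedom, had a median of 5.31 over the 139 members. It was 4.15 in the 95 A-genome members and 11.6 in the 44 D-genome members. In the other window models with recovered reads it was 61.6, with 46.7 in A-genome and 104 in D-genome models. The value grows with the number of reads at a given ratio. The lowest library had a median of 210 reads in the A-genome members and 376.5 in these D-genome members. The genomes are therefore not compared in steadiness by it. Between replicates of the same tissue the median was 0.888 in the members and 0.916 in the other models. Counting alone gives values near 1, but each value is a lower bound where the reads are, and the members were chosen for a small spread in these same values. In 33 of 139 members (23.7%) the value over the 6 libraries was under 2, against 15 of 1113 other window models (1.35%). Among the 95 A-genome members, which had fewer reads, it was under 2 in 29. The rule used these values, so nothing is read from these shares.

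Cotton_A_01848 was one of the 33 members under 2. It had 331 and 342 recovered reads in fiber, 272 and 242 in ovule and 227 and 235 in leaf, and a value of 0.555. Cotton_A_10830, with 495 and 496 reads in fiber, 446 and 387 in ovule and 339 and 330 in leaf, had 1.06. At the other end of the level of support, Cotton_A_32965 was a member on 51 and 54 reads in fiber, 35 and 37 in ovule and 26 and 39 in leaf. Its counting error was 19.6% in leaf replicate 1. Under 100 reads in the lowest library were found in 19 of 139 members (13.7%) and in 259 of 1113 other window models (23.3%).

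Of the 200 members, 95 (47.5%, 95% exact binomial interval 40.4% to 54.7%) were A-genome and 105 were D-genome models. In the rest of the level window 52.0% were A-genome models, and over all models 51.9%. The interval of the members covers these shares, but it treats the members as random draws. They are the head of a full ranking, so the interval decides nothing about the genomes. The A-genome and D-genome members had a median ratio of 1.40 and 1.39 and a median level of 42.5 and 40.2 FPKM. Because only uniquely mapped reads were kept, models with a nearly identical homoeolog may have lost reads, and the files do not say which.

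The D-genome identifiers carry a chromosome number from 1 to 13, and members occurred under each of these. Their number ran from 4 under chromosome number 3 to 17 under chromosome number 7. As a share of the D-genome window models with that number, they ran from 7.25% under chromosome number 13 to 19.5% under number 7. Chromosome number 3 stood at 11.8%. Of all 812 D-genome models of the window, 105 were members. The members closest in identifier were Gorai.004G223800 and Gorai.004G224000, 2 identifier steps apart and at ranks 188 and 66. Gorai.004G223800 had 79.8 and 89.2 FPKM in fiber, 123 and 124 FPKM in ovule and 105 and 104 FPKM in leaf. Gorai.004G224000 had 45.7 and 43.7 FPKM in fiber, 55.5 and 51.3 FPKM in ovule and 46.0 and 42.1 FPKM in leaf. In both models the ovule libraries were the highest.

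Gorai.012G019900 and Gorai.012G020400, 5 steps apart, were both highest in fiber. The first had 84.1 and 95.5 FPKM in fiber, 65.8 and 66.1 FPKM in ovule and 71.8 and 68.5 FPKM in leaf. The second had 60.4 and 56.6 FPKM in fiber, 39.8 and 41.2 FPKM in ovule and 42.8 and 44.0 FPKM in leaf.

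The closest A-genome pairs, each 3 identifier steps apart, did not share a highest tissue. Cotton_A_38144 was highest in fiber, with 177 and 182 FPKM in fiber, 145 and 151 FPKM in ovule and 149 and 138 FPKM in leaf. Cotton_A_38147 was lowest in fiber, with 60.4 and 57.5 FPKM in fiber, 67.1 and 71.1 FPKM in ovule and 69.3 and 68.9 FPKM in leaf. Cotton_A_14512 had 34.0 and 34.8 FPKM in fiber, 34.5 and 30.2 FPKM in ovule and 27.0 and 25.1 FPKM in leaf, with its highest library in fiber. Cotton_A_14515 had 24.0 and 27.9 FPKM in fiber, 21.5 and 27.7 FPKM in ovule and 30.9 and 27.9 FPKM in leaf, with its highest library in leaf. These pairs were picked by identifier distance, and the files give no relation between the models of a pair.

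Whether a model counts as steady depended on how the libraries were set against each other. Median-of-ratios scaling sets the typical model to the same level in every library, and here divided the fiber values by 0.925 and 0.918, the ovule values by 1.30 and 1.28 and the leaf values by 0.795 and 0.809. After it, the median ratio of the same 200 models was 1.65, with a highest of 2.55 and 38 models over 2. The lowest library was from the ovule in 191 of the 200 models, and the highest was from the leaf in 126, from the fiber in 74 and from the ovule in 0. On the deposited scale the ovule held the highest value most often.

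The median OL log2 change of the members was then -0.55 and the median FO change 0.44. In the ovule against the leaf, 142 members were lower and 0 higher (limma, adjusted p under 0.01), where 29.7% of all models were lower and 28.3% higher. In the fiber against the ovule, 122 were higher and 0 lower, where 30.3% of all models were higher and 34.7% lower. In the fiber against the leaf, 12 were higher and 35 lower, where 32.4% of all models were higher and 35.6% lower. With quantile normalization 33.1% of all models were higher and 26.5% lower in OL, 32.1% and 32.6% in FO, and 37.4% and 30.7% in FL. The median OL and FO changes of the members were then -0.23 and 0.16, and with rescaling after the 100 highest models were left out they were -0.086 and 0.14. FPKM alone cannot tell which of these scales gives the amount of transcript per cell, and this was not tested.

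**Figure D5:**
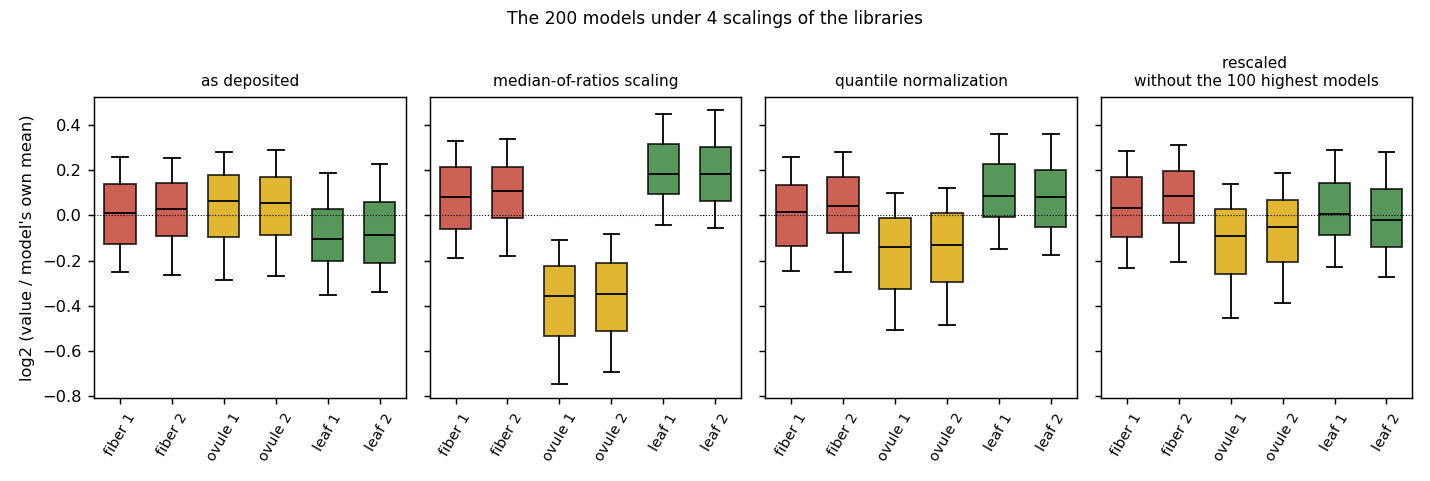
Log2 of a value over the mean of its own model (y axis) in each library (x axis) for the same 200 models under 4 scalings; boxes are quartiles with the median, and whiskers reach the 5th and 95th percentiles. On the deposited scale the 3 tissues lie close together, and under median-of-ratios scaling the ovule boxes lie below those of fiber and leaf, with median ovule to leaf changes of 0.13 and -0.55.

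Applied anew to each scaling, the rule chose 44 of the 200 members again with median-of-ratios scaling, 116 with quantile normalization and 146 with rescaling without the 100 highest models. The same 44 models were among the 200 under all 4 scalings, 19 of them A-genome models. None of the first 6 models was among them. Gorai.006G133400 had a ratio of 1.70 with median-of-ratios scaling, and Gorai.011G246400 had 1.52 and rank 309.

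The first of the 44 was Gorai.009G372600, at rank 28 on the deposited scale. It had 116 and 121 FPKM in fiber, 134 and 129 FPKM in ovule and 108 and 114 FPKM in leaf. Its ratio was 1.23 as deposited, 1.40 with median-of-ratios scaling, 1.11 with quantile normalization and 1.07 with rescaling. Gorai.002G054400, the member with the largest OL increase, had the smallest ratio of the 44 under median-of-ratios scaling, at 1.10 against 1.52 as deposited. In each of the 44 models the ovule had the highest mean on the deposited scale, against 45 of the other 156 members. Median-of-ratios scaling divided the ovule values by 1.30 and 1.28 and the leaf values by 0.795 and 0.809. The 44 models had to be steady after it, which largely set this contrast, so nothing is read from it. In these data the other scalings lowered the ovule values relative to the leaf, and each scaling was computed from these same libraries. The 44 models and their leading members were chosen after the values had been seen.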

How the data were processed

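Strand-specific mRNA-seq of fibers at 14 DPA, ovules at 0 DPA and young leaves was used, with groups and replicate numbers from the sample titles. The authors deposited FPKM values per gene model and library, without pooling. Per the submitters' processing notes and the study's methods, CASAVA 1.8, TopHat and Cufflinks were used and uniquely mapped reads were kept; the sources used here do not give versions of the last 2. The methods name the TM-1 genome, but the identifiers are not TM-1 identifiers, which was not resolved here. FPKM has no scaling between libraries.

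The rule was applied to the deposited values. Log2(FPKM + 1) was fitted with limma 3.58.1 (R 4.3.3, tissue means, variance trend, robust moderation) on the 42214 models with a mean of at least 0.5 FPKM. Benjamini-Hochberg adjustment was over all of them. The procedure was run on simulated data with changes larger than any of the members, scored over 2-fold. That run does not bear on the calls of members. P-values set a difference between tissue means against the spread between replicate libraries, moderated over all models fitted. For the members they come from values that the rule had limited. Recovered reads had to lie within 0.05 of a whole number, with a chance probability up to 0.001. Depth as a total is not given by the table.

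Named models were the 6 smallest ratios, the 2 smallest per genome, the lowest and highest level, the 2 models on each side of the limit, and the largest and smallest change in OL, FO and FL; others were named after their values had been seen. The members, lists and alternatives were chosen with earlier results of these data known. Other scalings, windows, measures, pseudocounts, filters, a replicate block and left-out libraries were tried.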

Additional observations from a re-analysis of the deposited data

How the results depend on the processing

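Of 178 values recomputed under alternatives, 101 kept their value within the limits set (the median replicate SD for ratios and log2 changes, 1.5 times for counts, the binomial interval for shares) and 77 moved. Among the 101 were values that the rule fixed in advance. These were the counts of 0 over 2-fold on the deposited scale and the 200 members found again when 400 models were taken. The tally is therefore no measure of robustness. Of the moved values, 40 were ratios of single named models under other scalings. Scaling had a wide effect. Under median-of-ratios scaling the median ratio of the members was 1.65. Their median log2 change was -0.55 in OL, 0.44 in FO and -0.12 in FL. With this scaling 142 members were called in OL, 122 in FO, 14 over 2-fold in OL and 3 over 2-fold in FO. Of all 42214 models, 7651 were called over 2-fold higher and 9234 lower in OL, and 9338 and 10718 in FO. The ratio in left-out libraries was 1.27. Quantile normalization gave medians of -0.23, 0.16 and -0.069, and rescaling without the 100 highest models gave -0.086 in OL and 0.14 in FO. The rule chose 44 members again under median-of-ratios scaling, 116 under quantile normalization, 100 with a window from 10 to 400 FPKM, 83 with a lowest value of at least 40 FPKM, and, by construction, 100 when 100 models were taken; the coefficient of variation chose 185 again and the ratio of tissue means 182. The A-genome share stayed between 42.0% and 54.0%.

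The counts of called members rested on the model of the spread. Without variance trend and robust fitting 37 were called in OL, 26 in FO and 25 in FL. That fit called 18824 of all 42214 models higher and 8590 lower in OL, 9839 and 18386 in FO, and 14635 and 13520 in FL. In the main fit these were 19095 and 8678, 10018 and 18593, and 14830 and 13670. Leaving out 1 library gave 28 to 52 in OL, 21 to 51 in FO and 24 to 39 in FL, and 0 over 2-fold each time; the cause was not tested, and the lone library of a tissue took its spread from the other tissues. In each of these fits with a library left out, fewer of all 42214 models were called higher, and fewer lower, than in the main fit. Nothing is therefore read about the members from their lower counts. The sources used here do not say whether same-numbered libraries were paired. Their deviations from the tissue means correlated at -0.06 to 0.05 across models, which does not settle it. With the replicate block 51 members were called in OL, 37 in FO and 33 in FL. Of all 42214 models, 18277 were then called higher and 8434 lower in OL, 9612 and 17990 in FO, and 14235 and 13185 in FL.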

Other observations

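Models chosen as steady from 3 libraries were not always steady in the others. The widest cases of the choice on the libraries numbered 2 are given here with their recovered reads. Reads are not given for the widest cases of the opposite choice, and a link between reads and spread was not tested. From the libraries numbered 2 alone, Cotton_A_25706 was among the 200 steadiest (ratio 1.13), with 94.3 FPKM in fiber, 105 FPKM in ovule and 107 FPKM in leaf. In the libraries numbered 1 it was at 77.9 FPKM in fiber and 44.9 FPKM in ovule and was listed at 0 in leaf. The smallest whole reads behind these values were 6 and 7 in fiber, 3 and 6 in ovule and 0 and 6 in leaf, so that 1 read in fiber replicate 1 was worth 12.98 FPKM. Cotton_A_01297 was chosen in the same way on 1 read in fiber, 1 in ovule and 1 in leaf, and was listed at 0 in fiber replicate 1 and leaf replicate 1. Its 6 libraries held 5 recovered reads in all. Gorai.013G222200, with 27 recovered reads, had 10.8 and 22.4 FPKM in fiber, 68.5 and 21.9 FPKM in ovule and 23.0 and 29.7 FPKM in leaf. With all 6 libraries, the members with recovered reads had at least 241 reads in all. These models were named after their values had been seen.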
